A study of Mus musculus with 6 samples.

Results

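The genes of the striated muscle contractile apparatus were examined in RNA labelled as embryonic mouse heart, with and without the transcription factor Sp3. A list of 39 genes was used: 12 cardiac isoforms, 13 skeletal muscle isoforms, 10 structural or filament genes shared by both muscles, and 4 factors that direct skeletal muscle formation. All 39 were measured, of 18193 genes in the series, and where a gene had several probe sets the one with the highest mean stood for it. The rule takes its members by gene name.

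The series held 6 oligonucleotide arrays, 3 labelled Sp3 knockout and 3 labelled wildtype, lettered a to c in each group, all at the embryonic stage E12.5. Each array carried biotin-marked total RNA of what the labels call a single heart, so the 2 groups share stage, tissue label and labelling and differ in the Sp3 label alone. The knockout allele, the strain and the sex of the embryos are not given in the sources used here. Sp3 lay at 8.39, 8.34 and 8.61 in knockout and at 9.87, 9.77 and 9.54 in wildtype on the log2 intensity scale, with no overlap (limma log2 difference -1.27, adjusted p = 0.00254).

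In striated muscle, myosin of the thick filament pulls on actin of the thin filament, and calcium releases that movement through troponin and tropomyosin. Heart and skeletal muscle build the same filaments from partly different isoforms, and the embryonic heart also makes some isoforms that are later kept by skeletal muscle, among them skeletal actin and the slow troponin I. Myogenin, MyoD, Myf5 and Myf6 are basic helix-loop-helix factors that switch on skeletal muscle genes and are not normally active in heart muscle. Sp3 is a zinc finger protein that binds GC-rich promoter elements.

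Most contractile transcripts lay in the lower part of the intensity scale in all 6 arrays labelled heart. The median percentile of the 39 members among all genes was 46.2, 44.4 and 38.3 in the knockout arrays and 39.4, 22.4 and 37.9 in the wildtype arrays, given here and below in the order a, b and c. By their mean over the arrays, 31 members lay below the 50th percentile and 8 at or above it. Taken within each array and then averaged over the 6 arrays, the median percentile was 35.4 for the cardiac isoforms and 39.3 for the skeletal isoforms. By the mean of each gene over the arrays, the medians were 39.9 and 39.6. The order of these 2 lists thus depended on the measure. In knockout c (40.5 against 32.4) and wildtype b (23.7 against 20.2) the cardiac median was the higher, and in the other 4 arrays the skeletal one. By gene means, the 12 measured hepatocyte markers had their median at the 98.9th percentile and the 12 measured red cell markers at the 98.5th. Within single arrays the hepatocyte median lay between 98.7 and 99.1. Of the 12 cardiac isoforms, 9 lay below the 50th percentile, among them Myh6 at 11.4, Myl2 at 20.2 and Tnni3 at 20.6, and 3 lay above it, Actc1 at 79.5, Tnnc1 at 68.5 and Myl7 at 67.8. Signal depends on probe sequence as well as on RNA, so the percentiles describe whole lists on these arrays and do not measure the amount of one tissue against another. Markers of liver and blood thus stood high in samples labelled heart, and the arrays are called by their labels throughout.

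Dim signals set the precision of most of the list. Intensities ran from 0.0562 to 12897, and the spread between arrays of 1 group was wider among dim probe sets than among bright ones. When all probe sets were divided by mean level into 10 classes of equal size, the median residual SD was 0.125 on the log2 scale in the brightest class and above 0.5 in the 5 dimmest, which reached up to a mean of 4.54. Of the members, 20 lay in those 5 dim classes and 19 above them. For this reason each log2 difference is also given after adding 16 intensity units to every value, which shrinks differences between dim signals.

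**Figure D1:**
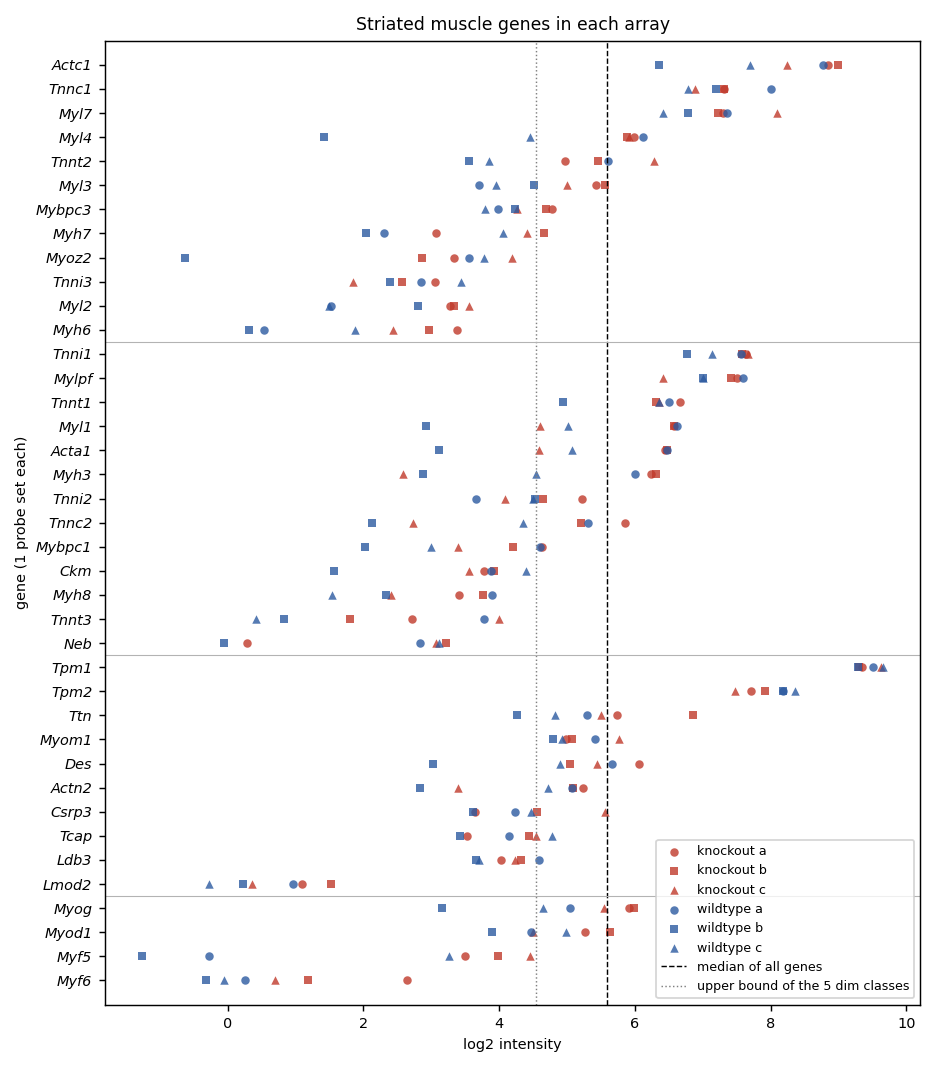
Log2 intensity (horizontal axis) of each of the 39 members (rows, in the order cardiac isoforms, skeletal isoforms, shared genes and myogenic factors) in each of the 6 arrays, with red for Sp3 knockout, blue for wildtype and the symbol for the letter. The dashed line is the median of all genes at 5.59 and the dotted line the upper bound of the 5 dim classes at 4.54; only 8 members have a mean at or above the median of all genes, and the wildtype b squares lie to the left in most rows.

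The promoters of 6 members are shown because these genes carry the results below and because Sp3 is known for binding the GC box: the cardiac and the skeletal actin, 3 members that lay higher in knockout without overlap (Myl3, Ttn and Myog), and Tpm2, whose brighter probe sets lay lower in knockout. Each run holds the 250 bases before the RefSeq start in the mouse build GRCm38.p6, written 5′ to 3′ on the gene's strand. Capitals mark exact matches to the GC box (GGGCGG), the TATA box (TATAAA), the CArG box bound by serum response factor and the site bound by MEF2 factors. The MEF2 pattern was YTAWWWWTAR, with Y for C or T, W for A or T and R for A or G. Each motif was searched on both strands, and overlapping matches share their capitals.
Actc1 (chr2:114052876-114053125, minus strand): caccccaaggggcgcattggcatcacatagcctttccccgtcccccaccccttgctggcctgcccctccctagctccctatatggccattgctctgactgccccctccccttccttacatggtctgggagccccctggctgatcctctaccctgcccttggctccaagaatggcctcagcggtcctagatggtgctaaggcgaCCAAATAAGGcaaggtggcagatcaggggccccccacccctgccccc
Acta1 (chr8:123894776-123895025, minus strand): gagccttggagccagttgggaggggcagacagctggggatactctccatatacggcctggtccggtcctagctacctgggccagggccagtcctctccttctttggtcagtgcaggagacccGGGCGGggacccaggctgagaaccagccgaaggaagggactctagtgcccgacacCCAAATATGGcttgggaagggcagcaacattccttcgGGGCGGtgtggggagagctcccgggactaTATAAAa
Myl3 (chr9:110763428-110763677, plus strand): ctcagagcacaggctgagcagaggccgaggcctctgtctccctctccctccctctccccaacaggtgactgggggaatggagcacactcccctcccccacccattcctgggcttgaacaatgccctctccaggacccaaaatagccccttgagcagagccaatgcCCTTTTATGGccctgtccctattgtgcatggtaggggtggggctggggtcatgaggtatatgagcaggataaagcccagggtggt
Ttn (chr2:76982548-76982797, minus strand): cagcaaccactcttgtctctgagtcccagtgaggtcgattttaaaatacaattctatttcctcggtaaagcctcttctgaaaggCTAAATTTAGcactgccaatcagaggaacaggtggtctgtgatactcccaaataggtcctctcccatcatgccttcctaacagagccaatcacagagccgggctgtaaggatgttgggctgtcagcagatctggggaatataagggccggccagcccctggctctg
Tpm2 (chr4:43523555-43523804, minus strand): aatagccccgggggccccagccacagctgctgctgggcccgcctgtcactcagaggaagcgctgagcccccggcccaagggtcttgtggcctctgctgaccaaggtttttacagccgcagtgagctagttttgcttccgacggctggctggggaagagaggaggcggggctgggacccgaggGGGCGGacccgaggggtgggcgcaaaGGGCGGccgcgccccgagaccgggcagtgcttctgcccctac
Myog (chr1:134289754-134290003, plus strand): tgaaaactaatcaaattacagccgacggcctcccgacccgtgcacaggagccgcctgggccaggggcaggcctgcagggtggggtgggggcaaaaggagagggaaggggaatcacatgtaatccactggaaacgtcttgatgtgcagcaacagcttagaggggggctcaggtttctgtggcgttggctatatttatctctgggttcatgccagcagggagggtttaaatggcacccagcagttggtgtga

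Counted back from the start, the CArG box began at -47 in Actc1, at -73 in Acta1 and at -85 in Myl3. In Ttn the MEF2 site began at -166, and in Tpm2 the GC boxes began at -68 and -42. Acta1 held GC boxes at -128 and -36 and a TATA box at -7, and the Myog window held no exact match to these 4 motifs. Its run ctatatttat differs from the MEF2 pattern searched only in the last base. RefSeq promoters were matched for 33 of the 39 members, with 39 windows in all because some genes have several starts. The CArG box was found in 7 of the 39 windows (17.9%) and in 1.5% of all 32851 windows of the same length. Overlapping windows of Ldb3, from different starts, hold the same CArG box and were each counted. The MEF2 site was in 4 (10.3%, against 2.9% of all windows), and the E-box CANNTG, the element read by the myogenic factors, in 34 (87.2%, against 66.2%). The GC box was in 8 of the 39 (20.5%, against 32.7% of all windows), while the median GC content was 56.4% in the members and 52.4% overall. Among the skeletal isoforms 5 of 11 windows held TATAAA (45.5%), compared with 1 of 15 for the cardiac isoforms (6.7%) and 12.4% of all windows. The skeletal matches began at -29 in Myh3, -30 in Tnnt1, -7 in Acta1, -95 in Myl1 and -96 in Myh8. Those of Myl1 and Myh8 were on the opposite strand, as was the cardiac one, at -216 in Myl2. Only this exact string was counted, so similar runs in other windows were missed. A match describes letters in this window only.

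No contractile gene passed the test between knockout and wildtype. With limma on all 45037 probe sets, 0 of the 39 members had an adjusted p under 0.05, where 0.0311% of all probe sets were called, and the adjusted p of the members ran from 0.499 to 0.989. Without adjustment 7 members had p under 0.05 and lay higher in knockout, beside 3.20% of all genes, and 1 had p under 0.05 and lay lower, beside 5.51% of all genes. The same model without a variance trend also called 0 members, with 9 at an unadjusted p under 0.05. In the absence of adjusted calls, the differences that follow are descriptions of these 6 arrays. Their number limits the precision of every value, and the p-values measure only the spread between these samples.

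The means nevertheless leaned one way across the list. In 34 of the 39 members the mean was higher in knockout, beside 47.5% of all genes, and the median log2 difference was 0.68, beside -0.02 for all genes. With 16 units added, 34 members were still higher and the median was 0.32. The 3 knockout arrays all lay above the 3 wildtype arrays for 9 members, beside 6.02% of all genes, and all lay below them for 1 member, beside 9.04% of all genes. Leaving out 1 array leaves fewer values to overlap: without knockout c 15 members lay higher in knockout without overlap (10% of all genes), without wildtype a 20 (10.18%) and without wildtype b 9 (9.25%). Of the 19 members above the dim classes, 7 had a wildtype mean under the bound of 4.54 and passed it through their knockout values (Myl3, Myl4, Tnnt2, Myh3, Des, Myog and Myod1), so nothing is read from a count over those 19. Much of the size of this lean rests on 1 array, since without wildtype b 27 members were higher and the median was 0.27, while without wildtype a 36 were higher and the median was 1.02. In bulk RNA, fewer cells of a type and less RNA per cell cannot be told apart.

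Wildtype b was the low array for the 39 members. It held the lowest value for 26 of the 39 members (66.7%), whereas it held the lowest value for 23.0% of all genes, and it held the highest value for 0 members. Knockout a and knockout b held the lowest value for 0 members, wildtype a for 2, knockout c for 4 and wildtype c for 7. After each gene was centred on its mean over the 6 arrays, the median deviation of the 39 members was 0.48, 0.50 and 0.15 in the knockout arrays and 0.32, -1.15 and -0.23 in the wildtype arrays. Wildtype a thus lay with the knockout arrays, above knockout c, and the groups overlapped. The median intensity of the whole array was also lowest in wildtype b, at 22.5 against 24.6 to 26.7 in the other 5. With every array centred on its median, 33 members were higher in knockout and the median log2 difference was 0.61, and after quantile normalization the values were 34 and 0.57. Tcap, at 0.05 as measured, was the only member to turn negative under both.

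**Figure D2:**
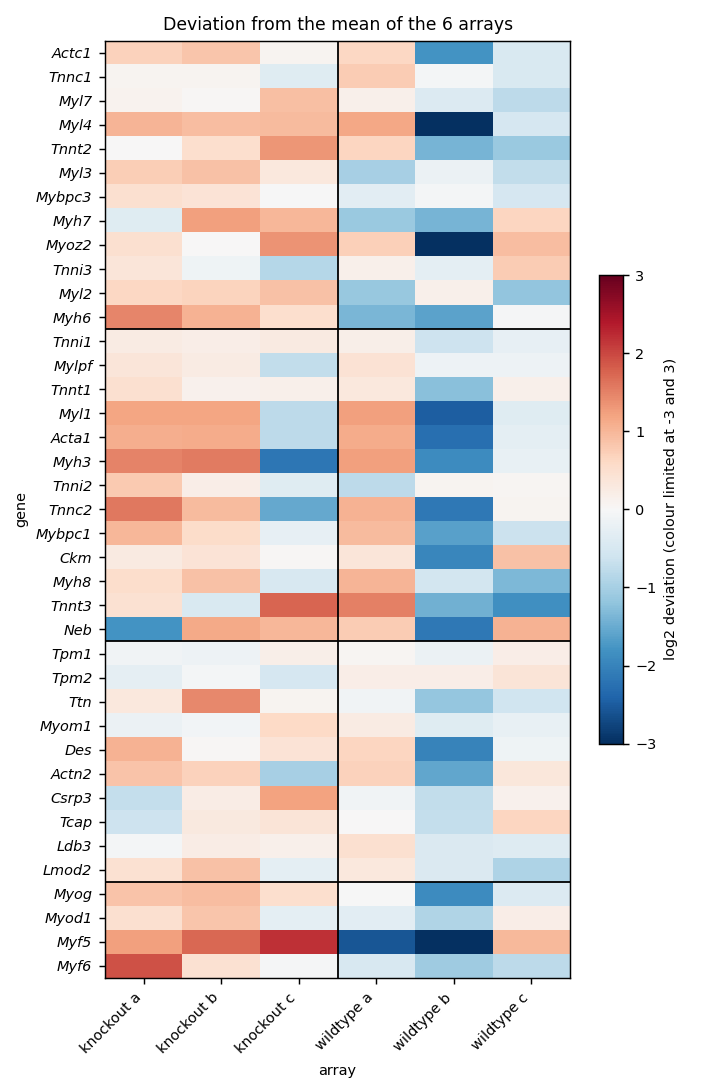
Deviation of each member's log2 intensity from its mean over the 6 arrays, with genes in rows (cardiac isoforms, skeletal isoforms, shared genes, myogenic factors from top to bottom) and arrays in columns, red above and blue below the mean, colour limited at -3 and 3. The wildtype b column is blue in most rows, holding the lowest value for 26 of 39 members, and the skeletal rows of knockout c are mostly blue while most of its cardiac rows are red.

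Among the cardiac isoforms, the lean toward knockout was seen in most genes. In knockout 10 of the 12 had the higher mean, with a median log2 difference of 1.23, which was 0.44 after 16 units were added. Without wildtype b the median was 0.68. For 4 of the 12 the knockout arrays all lay higher, beside 6.02% of all genes. These were Myh6, Myl2, Myl3 and Mybpc3, whose wildtype means all lay under the bound of the dim classes.

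The cardiac myosin heavy chains were dim. Myh6, the fast alpha chain that powers the atria and later the adult mouse ventricle, was at 3.38, 2.96 and 2.43 in knockout against 0.54, 0.32 and 1.88 in wildtype. All 3 knockout values lay above all 3 wildtype values, with means of 2.92 ± 0.48 and 0.91 ± 0.85 (SD, n = 3 each). The limma difference of 2.01 (adjusted p = 0.707) shrank to 0.39 with 16 units added. A second dim Myh6 probe set overlapped widely between the groups (difference 0.87). Myh7, the slow beta chain of the embryonic ventricle, was at 3.07, 4.66 and 4.41 in knockout against 2.31, 2.04 and 4.06 in wildtype. Its groups overlapped through wildtype c, and the difference of 1.24 (0.48 with 16 units added) did not pass (adjusted p = 0.744).

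Of the 4 myosin light chains, Myl2 and Myl3 separated the groups while Myl4 and Myl7 overlapped. Myl3, the ventricular essential light chain, was at 5.42, 5.56 and 5.00 in knockout against 3.70, 4.51 and 3.95 in wildtype. Every knockout array was above every wildtype array, and the difference of 1.27 ± 0.36 (SE) had an adjusted p of 0.52. Leaving out any 1 array kept that difference between 1.09 and 1.5. The dimmer Myl3 probe sets disagreed. One overlapped (difference -0.18), and the other lay higher in knockout without overlap (difference 1.02). Myl2, the ventricular regulatory light chain, lay at 3.28, 3.34 and 3.55 against 1.52, 2.81 and 1.49, again with no overlap but in the dim range (difference 1.45, or 0.40 with 16 units added). Myl7, the atrial regulatory light chain, was brighter, at 7.30, 7.23 and 8.10 in knockout and 7.35, 6.78 and 6.42 in wildtype. Wildtype a lay within the knockout values and knockout c stood alone at the top, and the difference of 0.70 ± 0.27 (SE, adjusted p = 0.665) was 0.42 without knockout c. Myl4, the atrial essential light chain, was steady in knockout at 5.89 to 5.99 but ran from 1.42 in wildtype b to 6.12 in wildtype a, so its difference of 1.93 was 0.64 without wildtype b. A dimmer Myl4 probe set overlapped with the opposite sign (difference -0.70).

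Thin filament genes of the heart did not share a sign. Actc1, cardiac alpha-actin and the brightest cardiac isoform, was at 8.85, 8.99 and 8.24 in knockout against 8.77, 6.35 and 7.70 in wildtype. Wildtype a lay among the knockout values and wildtype b far below every other array, and the difference of 1.09 ± 0.69 (SE, adjusted p = 0.773) was 0.46 without wildtype b. Tnnt2, cardiac troponin T, which ties troponin to tropomyosin, was at 4.97, 5.46 and 6.28 in knockout against 5.60, 3.56 and 3.85 in wildtype. It was highest in knockout c and overlapped through wildtype a, with a difference of 1.23 ± 0.52 (SE, adjusted p = 0.68). Tnnc1, the calcium-binding troponin C of heart and slow muscle, was at 7.32, 7.32 and 6.88 in knockout against 8.0, 7.19 and 6.78 in wildtype. Those groups overlapped around a difference of -0.15, whose sign turned to 0.19 without wildtype a. Tnni3, cardiac troponin I, lay at 3.05, 2.57 and 1.84 against 2.85, 2.39 and 3.44, a dim and overlapping pair of groups with a difference of -0.41.

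Of the remaining cardiac members, Mybpc3, the cardiac myosin-binding protein C, was at 4.78, 4.69 and 4.27 in knockout against 3.98, 4.23 and 3.79 in wildtype. The groups did not overlap, although knockout c lay just above wildtype b, and the difference was 0.59 (0.32 with 16 units added, adjusted p = 0.766). Myoz2, a Z-disc protein that binds calcineurin, ranged from -0.63 in wildtype b to 4.19 in knockout c. Its difference of 1.23 (0.20 with 16 units added) turned to -0.20 without wildtype b.

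The skeletal isoforms leaned the same way by a smaller median, and 1 of the 13 lay higher in knockout without overlap, beside 6.02% of all genes. In 12 of 13 the mean was higher in knockout, with a median log2 difference of 0.58 (0.31 with 16 units added). That median was 0.06 without wildtype b and 1.26 without wildtype a. Tnni1, the slow skeletal troponin I that the embryonic heart also makes, was the only one of the 13 with no overlap. It was at 7.63, 7.58 and 7.66 in knockout against 7.57, 6.77 and 7.14 in wildtype, and the lowest knockout value stood just above wildtype a. The difference of 0.46 ± 0.19 (SE, adjusted p = 0.668) ran from 0.27 to 0.67 as single arrays were left out.

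The other bright skeletal genes overlapped between the groups. Mylpf, the regulatory light chain of fast skeletal muscle, was at 7.51, 7.41 and 6.42 in knockout against 7.59, 7.01 and 7.01 in wildtype. Knockout c was the lowest array, and the difference of -0.09 became 0.26 without it. Tnnt1, slow skeletal troponin T, was at 6.67, 6.31 and 6.35 in knockout against 6.5, 4.94 and 6.35 in wildtype, where wildtype b alone was low and the difference of 0.51 was 0.01 without it. Tnnt3, fast skeletal troponin T, was dim and scattered, at 2.72, 1.81 and 4.0 against 3.78, 0.83 and 0.42.

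Several sarcomeric genes of developing skeletal muscle followed 1 pattern across the arrays that did not follow genotype. These were singled out after their values were seen. Myh3, the embryonic myosin heavy chain, was at 6.24, 6.31 and 2.59 in knockout against 6.00, 2.88 and 4.54 in wildtype. Myl1, the fast skeletal essential light chain, was at 6.58, 6.58 and 4.60 in knockout against 6.62, 2.92 and 5.01 in wildtype. Acta1, skeletal alpha-actin, was at 6.45, 6.48 and 4.58 in knockout against 6.48, 3.11 and 5.07 in wildtype. All 3 were high and nearly level in knockout a, knockout b and wildtype a, and low in knockout c and wildtype b. Wildtype c lay between these, and for Myl1 and Acta1 it was nearer to knockout c than to the high arrays. For the same 2 genes wildtype b lay well below knockout c. Tnnc2, fast troponin C, and Actn2, the alpha-actinin of the Z-disc, were high and low in the same arrays, with Tnnc2 at 5.85, 5.20 and 5.31 in the high arrays and 2.73 and 2.12 in knockout c and wildtype b. The highest intensity was 13.2 times the lowest for Myh3, 13.0 times for Myl1, 13.2 times for Tnnc2 and 10.4 times for Acta1. The group differences of Myh3, Myl1, Tnnc2 and Acta1 were 0.58, 1.07, 0.66 and 0.95, and they had adjusted p of 0.943, 0.858, 0.901 and 0.858 in the same order.

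The remaining skeletal members, Myh8, Tnni2, Neb, Mybpc1 and Ckm, had differences between 0.23 and 0.87, and the groups overlapped for all 5. They encode the perinatal myosin heavy chain, fast troponin I, nebulin, the slow myosin-binding protein C and the muscle creatine kinase. Wildtype b was the lowest array for Neb, Mybpc1 and Ckm, while Neb was also low in knockout a, at 0.28.

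Cardiac and skeletal isoforms lay together in some arrays and apart in others. The median deviation of the cardiac isoforms from their own mean was 0.49, 0.59 and 0.70 in the knockout arrays and 0.16, -0.90 and -0.49 in the wildtype arrays. On the same scale the skeletal isoforms were at 0.52, 0.56 and -0.36 in knockout and 0.97, -1.62 and -0.22 in wildtype. For the cardiac isoforms all 3 knockout arrays were above all 3 wildtype arrays, whereas for the skeletal isoforms the groups overlapped, with wildtype a the highest and wildtype b the lowest array. The cardiac median minus the skeletal median was -0.04, 0.03 and 1.06 in knockout against -0.81, 0.72 and -0.26 in wildtype. This value was largest in knockout c and next in wildtype b, where both medians were at their lowest. It compares deviations and not the amounts of the 2 kinds of isoform. Knockout c held the highest value of 4 of the 12 cardiac isoforms, among them Myl7 and Tnnt2, beside 19.4% of all genes. It held the lowest value of 2 of the 13 skeletal isoforms, beside 21.9% of all genes. Summed intensity told the arrays apart differently, with the cardiac sum at 990, 1051 and 944 in knockout and 1032, 411 and 517 in wildtype, where Actc1 weighs most, and wildtype a then lay among the knockout arrays.

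**Figure D3:**
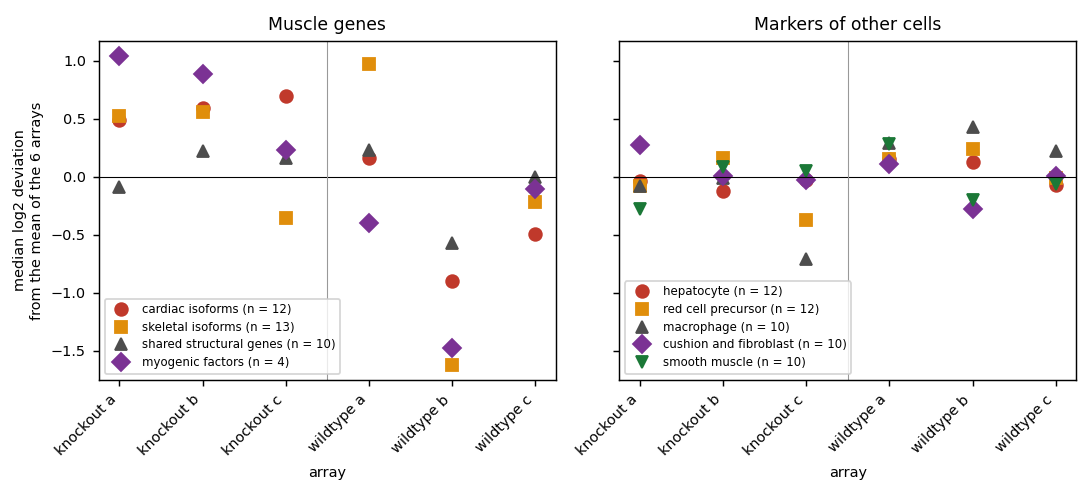
Median deviation of log2 intensity from the mean of the 6 arrays (vertical axis, log2 units) for each array (horizontal axis), with the 4 groups of muscle genes on the left and marker lists of other cells on the right, n being the genes measured in each list. The skeletal isoforms span from -1.62 in wildtype b to 0.97 in wildtype a, while the macrophage markers are lowest in knockout c at -0.71 and the hepatocyte markers stay between -0.12 and 0.15.

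Genes shared by heart and skeletal muscle differed in sign and were steadier where bright. In 8 of 10 the mean was higher in knockout, with a median log2 difference of 0.30 (0.13 with 16 units added). Ttn, the giant protein that spans from Z-disc to M-line, was at 5.73, 6.85 and 5.50 in knockout against 5.30, 4.26 and 4.82 in wildtype. The groups did not overlap, knockout b was highest, and the difference of 1.23 ± 0.38 (SE, adjusted p = 0.564) stayed between 0.82 and 1.5 as single arrays were left out. The Ttn probe sets disagreed, however. A dimmer one lay lower in knockout without overlap (difference -1.25), and the rest overlapped, with differences from 0.09 to 1.60.

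The tropomyosins, the coiled coils that cover the myosin-binding sites on actin, behaved otherwise. Tpm1, the brightest member and the main striated form in heart, was at 9.34, 9.30 and 9.63 in knockout against 9.51, 9.28 and 9.66 in wildtype. Its groups overlapped, all 6 arrays lay within 0.39 of each other, and its difference of -0.06 (adjusted p = 0.933) was 0.01 after quantile normalization. Tpm2, beta-tropomyosin, was the only member lower in knockout without overlap, at 7.71, 7.92 and 7.47 against 8.18, 8.18 and 8.36. The means were 7.70 ± 0.22 and 8.24 ± 0.10 (SD, n = 3 each), and the difference of -0.54 ± 0.15 (SE) had the smallest adjusted p of the list, 0.499. A second Tpm2 probe set separated the groups in the same direction, with means of 6.32 and 6.84, whereas the 2 dimmest Tpm2 probe sets overlapped and had differences of 0.69 and 0.46. Tropomyosin genes are also used outside striated muscle, in smooth muscle and the cytoskeleton.

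The other shared members were dim or overlapped. Des, the desmin filament that links sarcomeres, had a difference of 0.99, with wildtype b far below the rest at 3.02 and the other 5 arrays between 4.90 and 6.06. Csrp3, a Z-disc and nuclear LIM protein, was highest in knockout c at 5.56, as were Myl7 and Tnnt2, and its groups overlapped (difference 0.47). Actn2, Myom1 of the M-line, Tcap that caps titin, Ldb3 of the Z-disc and Lmod2, which lengthens the thin filament, had differences between 0.05 and 0.69. Wildtype b held the lowest value for 8 of the 10 shared members.

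All 4 factors of skeletal muscle formation lay below the 50th percentile and had the higher mean in knockout. Myog, myogenin, was at 5.92, 5.99 and 5.55 in knockout against 5.05, 3.16 and 4.65 in wildtype. The groups did not overlap, the means were 5.82 ± 0.24 and 4.29 ± 1.00 (SD, n = 3 each), and the difference of 1.53 ± 0.43 (SE, adjusted p = 0.52) ran from 0.97 to 1.92 as single arrays were left out. Myod1, MyoD, was at 5.27, 5.63 and 4.50 in knockout against 4.47, 3.89 and 4.99 in wildtype, where wildtype c lay among the knockout values (difference 0.68, adjusted p = 0.742). Myf5, an early determination factor, was at 3.50, 3.99 and 4.46 in knockout against -0.28, -1.26 and 3.26 in wildtype. It separated the groups, but its difference of 3.41 came from values near the floor of the scale and was 0.74 with 16 units added (adjusted p = 0.63 before that). Myf6 was the dimmest of the 4, at 2.65, 1.19 and 0.70 against 0.25, -0.32 and -0.06, with a difference of 1.56 that was 0.18 with 16 units added. All 4 factors had their lowest value in wildtype b.

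**Figure D4:**
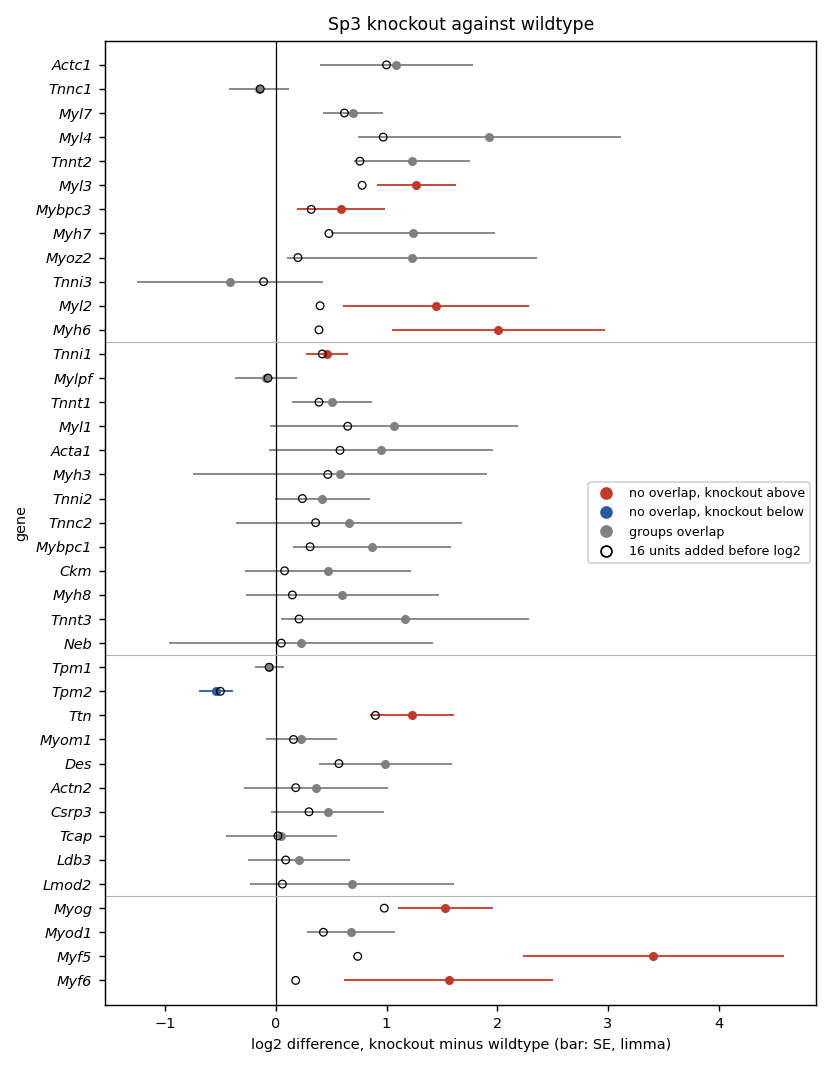
Log2 difference, Sp3 knockout minus wildtype, for each of the 39 members (filled points, with bars of 1 SE from limma), coloured by whether the 3 knockout arrays all lay above or all below the 3 wildtype arrays. Open circles give the difference after 16 intensity units were added, which draws dim genes such as Myf5 from 3.41 to 0.74 and leaves bright genes such as Tpm2 near -0.54; 34 of the 39 points lie to the right of 0 and none passed the adjusted test.

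Other sarcomere genes also had more members higher than lower in knockout. Of 35 further sarcomere genes measured, 25 had the higher mean in knockout, beside 47.5% of all genes, with a median log2 difference of 0.22. With 16 units added, 25 were still higher and the median was 0.10. In 4 of the 35 the knockout arrays all lay higher, beside 6.02% of all genes. Wildtype b was not the low array of this list. It held the lowest value for 5 of the 35 (14.3%, beside 23.0% of all genes), and wildtype c for 11 (31.4%, beside 11.5%). The 3 of smallest p were Myot, Flnc and Myh7b, with adjusted p of 0.597, 0.608 and 0.661. Myot, a Z-disc protein, had a difference of 3.51 from dim values, which was 0.80 with 16 units added. Flnc, the muscle filamin, was at 5.83 ± 0.34 against 4.98 ± 0.28 (SD, n = 3 each), and Myh7b, a slow myosin, at 6.11 ± 0.21 against 5.45 ± 0.35. Of 23 calcium-handling genes 13 were higher, with a median of 0.06. Trdn, triadin of the calcium release complex, and Casq1, the skeletal calsequestrin, lay in opposite directions at -2.49 and 1.55, both from dim values. With 16 units added their differences were -0.50 and 0.55. Of 12 genes of muscle metabolism 7 were higher, with a median of 0.19, but with 16 units added 6 were higher and the median was 0.02. Cox6a2, the muscle form of a cytochrome oxidase subunit, did not overlap (difference 0.89, adjusted p = 0.665). None of these lists held a gene with an adjusted p under 0.05.

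Contractile genes outside striated muscle showed no such lean. Of 10 smooth muscle genes 5 were higher in knockout, with a median of 0.01, and 6 of 12 non-muscle contractile genes were higher, with a median of -0.02. Myl9, the smooth muscle regulatory light chain, was at 9.28, 9.11 and 9.32 in knockout against 8.98, 8.87 and 8.87 in wildtype. Myl12b, a non-muscle regulatory light chain, lay the other way, at 9.71, 9.84 and 9.70 against 10.05, 10.11 and 10.02. The groups did not overlap for either gene, and the differences of 0.33 and -0.31 had adjusted p of 0.601 and 0.554.

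Markers of other cells also differed between the groups and between single arrays. All 10 macrophage markers had the lower mean in knockout, with a median log2 difference of -0.52, and 6 lay lower without overlap, beside 9.04% of all genes. Their summed intensity was 1399 to 2290 in knockout and 2665 to 2985 in wildtype, lowest in knockout c. In that array the median deviation was 0.70 for the cardiac isoforms and -0.36 for the skeletal isoforms. Its cardiac sum, at 944, was however under those of knockout a, knockout b and wildtype a. Of the 12 hepatocyte markers 10 were lower in knockout (median -0.14), with sums of 44784 to 45609 in knockout and 44797 to 51929 in wildtype. Of the 12 red cell markers 10 were lower (median -0.21), with sums of 34471 to 46117 in knockout and 42181 to 48424 in wildtype. Wildtype b, where the 39 members had their lowest sum, at 1779, had the highest red cell sum. Mesenchymal and fibroblast markers had a median difference of 0.16 and were lowest in wildtype b, at a median deviation of -0.28, with 6 of the 10 at their lowest there (60.0%, beside 23.0% of all genes). Endothelial markers had a median difference of 0.15. The part of these cells in the contractile values was not tested.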

How the data were processed

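Gene expression was measured in 6 samples labelled as single mouse hearts, whose titles give the group and a letter. The deposited table holds intensities on a linear scale. GCOS and RMA are named in the submitters' processing notes, and version, role and genome build are not given in the sources used here. Detection calls were not used here.

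Log2 of each intensity was taken with no other normalization. Probe sets were named through the platform annotation, which gave 1 gene for 34945, several for 932 and none for 9160. The test was limma 3.58.1 in R 4.3.3, lmFit and eBayes with a variance trend and robust estimation, on all 45037 probe sets other than controls, with no filter, two-sided, Benjamini-Hochberg adjusted p under 0.05. It was tested on simulated data.

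The members and lists were chosen with earlier results of these data known. Values in every array are given for members at or above the 50th percentile, members without overlap, members with unadjusted p under 0.05, and Myh6, Myh7, Myl2, Tnnt2, Tnni3, Mylpf, Tnnt3, Myog and Myod1. In other lists up to 3 genes of smallest p could be named. The alternatives were the fit without a trend, quantile normalization, median centring, 16 units added, dim probe sets left out, averaging all probe sets of a gene, array weights, the letter as a block and each array left out. Leaving out knockout c and wildtype b together was added after the data were seen. Pairs of arrays shared at most 1 identical value, and correlated at 0.888 to 0.909 over probe sets. The letters were not used to pair arrays in the main test, since the titles do not say that they mark pairs. Deviations of same-lettered arrays correlated at -0.007, 0.050 and 0.080, and those of arrays with unlike letters at -0.069 to 0.021. These values do not settle whether the letters mark pairs. Promoter sequences come from RefSeq on GRCm38.p6, and no protein sequence was used here.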

Additional observations from a re-analysis of the deposited data

How the results depend on the processing

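The limma count of 0 members did not change under any of the 14 alternatives run. Without a trend 9 members had an unadjusted p under 0.05, and the range over all alternatives was 5 to 13. The smallest adjusted p among the members ran from 0.125 with the letter as a replicate block to 0.872 without knockout a. The replicate block gave 0 calls among the members and 258 over all probe sets, against 14 without it. Whether the letters mark pairs of arrays is not known. Array weights gave 25 calls over all probe sets, the fit without a trend 0, and leaving out knockout a 3.

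With dim probe sets left out, 15 of the 19 members that remained were higher in knockout and 4 lay higher without overlap (5.71% of all genes). Fewer genes were then tested, and 7 of the 19 passed the bound through their knockout values, so these counts support nothing. The cardiac median of 1.23 was 0.44 with 16 units added. Leaving out single arrays gave 27 to 36 members higher and 9 to 20 higher without overlap (9.25% to 14.49% of all genes). It gave medians of 0.27 to 1.02 for the members, 0.68 to 1.26 for the cardiac isoforms and 0.06 to 1.26 for the skeletal isoforms. With knockout c and wildtype b both left out, 29 members were higher (44.3% of all genes), 15 lay higher without overlap (14.72%), and the cardiac median was 0.66. The cause of these shifts was not tested.

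Averaging the probe sets of each gene left 35 members higher (50% of all genes) and 6 higher without overlap (6.04%). The percentile levels stayed within the spread between arrays under the 7 alternatives run for them. Signal over background limits the 20 members in the dim classes, where small intensities make large log2 differences.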

Other observations

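For 13 members the arrays carry several probe sets, 65 over the whole list. Of the 26 probe sets not chosen to stand for their gene, 19 had a difference of the same sign as the chosen one, and 22 lay in the 5 dim classes. For Tnnt2 the other probe sets had differences of 0.58 and 1.28, and the latter did not overlap, at 3.88, 3.76 and 3.74 in knockout and 3.20, 3.19 and 1.17 in wildtype. For Tpm1 a bright second probe set had a difference of -0.12 and another one of 0.29, so its probe sets disagreed in sign while these overlapped between the groups.

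The calcium pump Atp2a2 (SERCA2), which refills the sarcoplasmic reticulum of heart and slow muscle and is also made in most other cells, lay at the 97.4th percentile, with a knockout mean of 10.74 ± 0.09 and a wildtype mean of 10.85 ± 0.08 (SD, n = 3 each).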
